A study of Mus musculus with 4 samples.

Results

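The 9 genes described here encode the plasma membrane calcium pumps (Atp2b1 to Atp2b4), the endoplasmic reticulum calcium pumps Atp2a2 and Atp2a3, and the ryanodine receptors (Ryr1 to Ryr3). They were taken by gene symbol, with every probe set that the platform annotation assigns to exactly 1 of these symbols. This gave 24 probe sets, out of 34945 probe sets with 1 symbol, and 9 of 18193 named genes. Expression was measured on Affymetrix arrays in Purkinje cells, the inhibitory output neurons of the cerebellar cortex, cut by laser from frozen cerebellar sections. The cells came from intact male C57BL/6J mice aged 8 weeks that carried no engineered allele and received no treatment per the labels. The 4 samples form 1 group, 2 from each of 2 animals, here called 2-1, 2-2, 1-1 and 1-2, with the animal's number first. Whether the 2 samples of a mouse were captured separately is not stated in the labels. P-values between animals therefore reflect the spread among these 4 samples, which may be technical. For each probe set that spread was moderated by a trend over all tested probe sets.

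Purkinje cells carry large calcium signals in their dendrites, and calcium is then removed from the cytosol by pumps that spend ATP. Plasma membrane pumps (PMCA) push calcium out of the cell, and the sarco-endoplasmic reticulum pumps (SERCA) return it to the internal store. Ryanodine receptors are the channels through which the store releases calcium when cytosolic calcium rises.

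The cell type label was checked first, and 12 of 12 measured Purkinje cell markers, among them Calb1, Pcp2 and Pcp4, exceeded a background bound in all 4 samples. On each array that bound was the 95th percentile of the signals of 71 genes typical of other organs (liver, muscle, skin and so on), and it stood at 5.91, 5.97, 6.15 and 6.00 on the log2 scale in samples 2-1, 2-2, 1-1 and 1-2. Levels are quantile-normalized log2 signals unless called deposited. The deposited arrays of animal 2 were brighter, with median signals of 9.6 and 11.4 against 8.4 and 8.5 in animal 1. Of the other cell types, granule cell markers passed on all 4 arrays in 4 of 11 cases, Bergmann glia and astrocyte markers in 8 of 12, interneuron markers in 3 of 8, oligodendrocyte markers in 2 of 7, blood vessel markers in 2 of 9 and microglia markers in 1 of 7. In a captured sample, fewer cells of a type and less RNA per cell cannot be told apart. Probe sets respond differently to the same amount of RNA, so the levels of different probe sets are not ranked.

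Of the 24 probe sets, 7 (29.2%) were clear of the bound in every sample, 7 in 1 to 3 samples and 10 in no sample. Over all probe sets with 1 gene symbol, 19.0% were clear of it in every sample. By the brightest probe set of each gene, 4 of the 9 genes (44.4%) passed on all 4 arrays, Atp2b1, Atp2b2, Atp2a2 and Atp2a3, against 26.4% of all genes. Atp2b3, Ryr1 and Ryr2 passed on 3 arrays with their brightest probe set, and Atp2b4 and Ryr3 on none, as did 58.1% of all genes. A bound at the 90th percentile gave 7 genes and a bound at the 99th gave 3. The share of all genes was not counted at these bounds, so 26.4% does not apply to them.

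**Figure D1:**
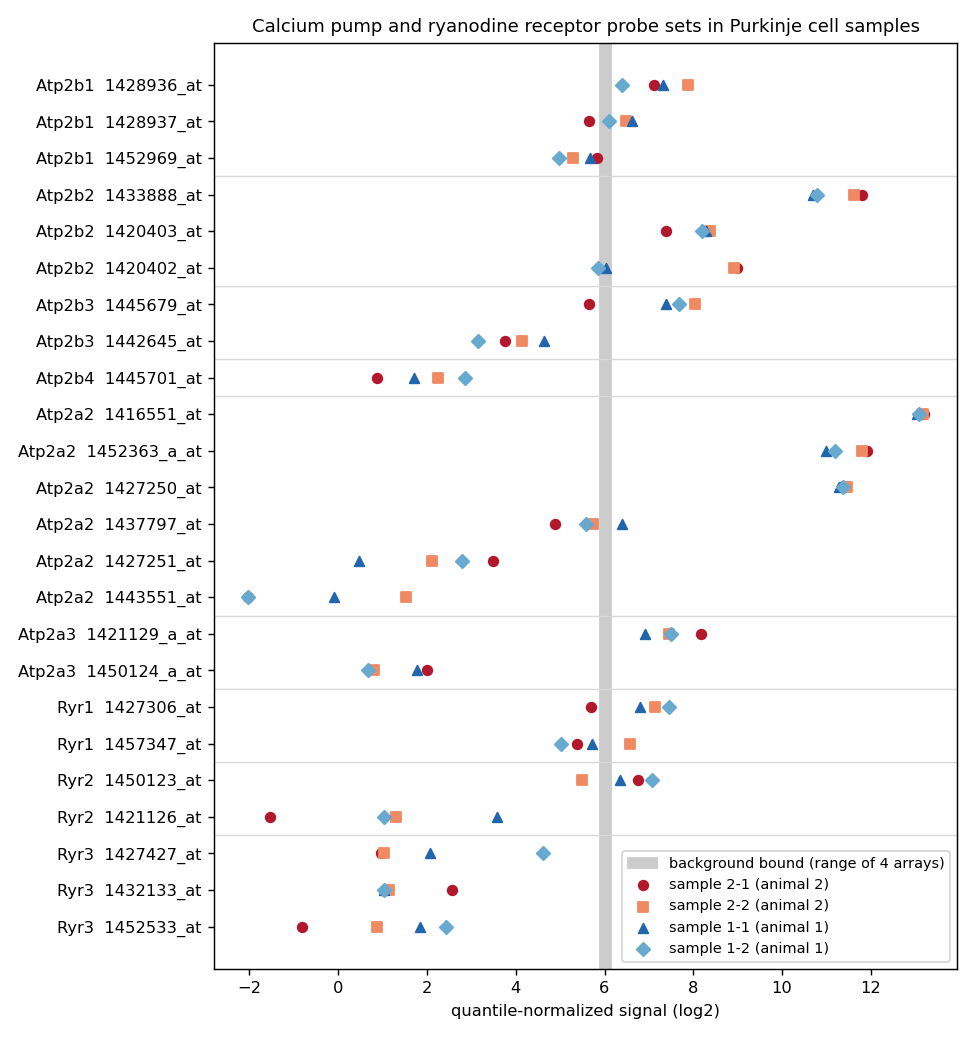
Level of each of the 24 probe sets (rows) in the 4 samples, as quantile-normalized log2 signal on the x axis, with the range of the background bound over the 4 arrays in grey. The 3 brightest Atp2a2 probe sets and 2 of the 3 Atp2b2 probe sets lie right of the bound in every sample, and all Ryr3 points and the Atp2b4 points lie left of it.

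Atp2b2 encodes PMCA2, a pump abundant in Purkinje cells whose loss causes ataxia and deafness in mice. Its probe set 1433888_at had deposited signals of 3792 and 3927 in samples 2-1 and 2-2, against 1427 and 1525 in samples 1-1 and 1-2. After normalization the levels were 11.81 and 11.63 in animal 2 and 10.70 and 10.80 in animal 1, so the animals did not overlap and the gap exceeded the spread within either animal. Animal 2 exceeded animal 1 by 0.97 ± 0.11 in log2 units (SE, limma, 2 samples per animal, adjusted p = 0.0374), a ratio of 1.96.

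Probe set 1420402_at of the same gene had deposited signals of 543.8 and 639.2 in samples 2-1 and 2-2, against 53.7 and 47.9 in samples 1-1 and 1-2. Its levels of 8.98 and 8.91 in animal 2 lay above the bound, and those of 6.04 and 5.86 in animal 1 lay just under it. It was at least 7.32-fold higher in animal 2, counted against the bound. Because a probe set was tested only if at least 2 of its samples were above the bound, this one entered through animal 2 alone, where it is high. Its call (limma, adjusted p = 0.0356, and 0.108 with no filter) is therefore a description and supports nothing by itself. The third probe set, 1420403_at, was at 7.39 and 8.39 in animal 2 and at 8.29 and 8.19 in animal 1. There the samples of animal 2 lay on both sides of animal 1, and the difference of -0.35 ± 0.39 was not called (SE, limma, adjusted p = 0.668).

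Both Atp2b2 calls were lost without sample 1-1 (adjusted p = 0.320 for 1433888_at and 0.276 for 1420402_at, limma) and without sample 1-2 (0.275 and 0.287), while the fitted differences stayed positive. Both were also lost with no filter on dim probe sets (0.139 and 0.108) and without the mean-variance trend (0.225 and 0.198), and over the alternatives the adjusted p ran from 0.0119 to 0.320 for 1433888_at and from 0.0101 to 0.287 for 1420402_at.

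**Figure D2:**
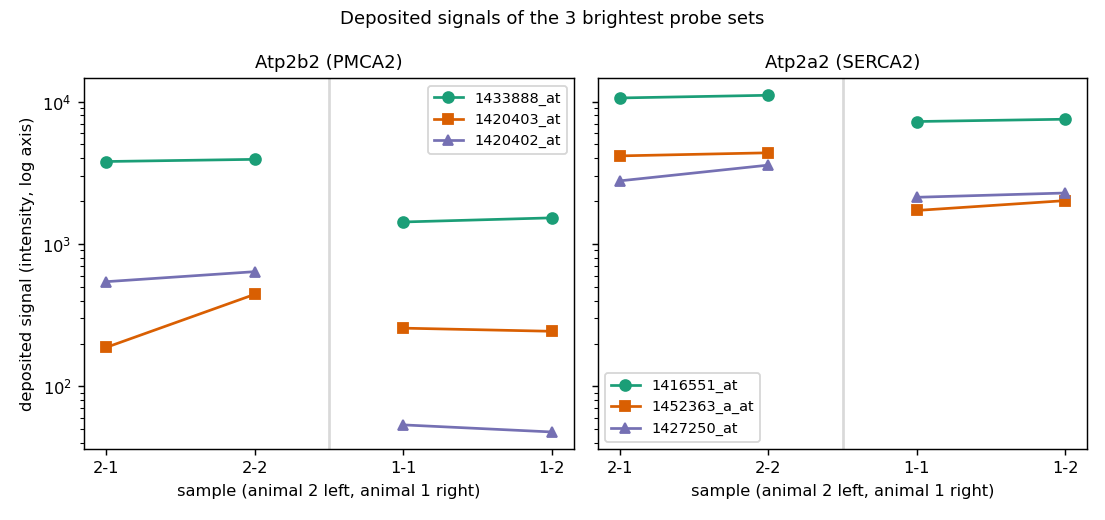
Deposited signal on a log axis of the 3 brightest probe sets of Atp2b2 (left) and Atp2a2 (right) in samples 2-1, 2-2, 1-1 and 1-2, with lines joining samples of an animal. For Atp2b2, 1433888_at and 1420402_at are each brighter in both samples of animal 2 than in both of animal 1, while the animals overlap on 1420403_at. All 3 Atp2a2 probe sets are brighter in animal 2 on this deposited scale.

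RefSeq lists 3 start sites for Atp2b2 on GRCm38.p6, and their sequences are shown because the probe sets of this gene differed and transcripts of it can begin at different places. Each window runs from 250 bases before to 50 bases after a start site, 5′ to 3′ on the strand of the gene, and the start sites are numbered in the order of the table. Capitals mark GGGCGG or its reverse complement CCGCCC, the core of the GC box, searched on both strands.
Atp2b2 start site 1, chr6:114042031-114042330, minus strand: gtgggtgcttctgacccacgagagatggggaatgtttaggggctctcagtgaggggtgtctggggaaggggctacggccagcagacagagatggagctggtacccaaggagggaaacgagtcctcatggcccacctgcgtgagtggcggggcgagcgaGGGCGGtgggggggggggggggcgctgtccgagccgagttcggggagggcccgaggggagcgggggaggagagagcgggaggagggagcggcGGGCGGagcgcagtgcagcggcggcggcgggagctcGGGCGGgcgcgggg
Atp2b2 start site 2, chr6:113934632-113934931, minus strand: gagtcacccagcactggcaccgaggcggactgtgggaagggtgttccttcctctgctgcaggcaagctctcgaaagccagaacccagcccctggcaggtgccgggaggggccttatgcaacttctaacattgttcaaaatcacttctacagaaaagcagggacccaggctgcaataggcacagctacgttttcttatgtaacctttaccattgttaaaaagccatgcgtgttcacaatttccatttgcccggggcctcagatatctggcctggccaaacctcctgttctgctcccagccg
Atp2b2 start site 3, chr6:113891490-113891789, minus strand: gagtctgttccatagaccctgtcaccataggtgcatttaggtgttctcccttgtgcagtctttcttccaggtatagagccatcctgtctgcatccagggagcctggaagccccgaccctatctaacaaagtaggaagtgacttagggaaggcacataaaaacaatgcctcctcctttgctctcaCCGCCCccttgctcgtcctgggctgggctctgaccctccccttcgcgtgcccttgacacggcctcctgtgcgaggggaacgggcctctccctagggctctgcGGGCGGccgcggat
The first window held 3 matches and had a GC content of 72.7%, the second held 0 matches at 54.0%, and the third held 2 matches at 58.7%. At least 1 match was found in 7 of 9 windows of the 6 member genes in the table, and in 35.7% of all 32851 windows of this length. TATAAA was in 0 of the 9 windows against 13.6% of all, and AGGTCA, a nuclear receptor half-site, in 1 of 9, that of Ryr2, against 16.3% of all. Such matches describe letters only. The arrays do not tell from which start site a signal came, and the target sequences of the probe sets were not used here.

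Atp2b1 encodes PMCA1, the pump found in most cell types. Probe set 1428936_at was at 7.10 and 7.88 in samples 2-1 and 2-2 and at 7.33 and 6.40 in samples 1-1 and 1-2, above the bound throughout. Probe set 1428937_at was at 5.65 and 6.48 in animal 2 and at 6.61 and 6.09 in animal 1, with only sample 2-1 below the bound, and 1452969_at, between 4.98 and 5.82, lay below it on all arrays. The animals overlapped on all 3 probe sets, and the 2 tested stood at 0.63 ± 0.47 (adjusted p = 0.524) and -0.29 ± 0.55 (adjusted p = 0.815, SE, limma).

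Atp2b3 encodes PMCA3, a pump largely restricted to the nervous system. Its probe set 1445679_at was at 5.65 and 8.04 in samples 2-1 and 2-2, against 7.39 and 7.68 in samples 1-1 and 1-2. Sample 2-1 stood apart, a ratio of 5.24 below the other sample of its animal, while the samples of animal 1 differed by a ratio of 1.23. The difference between animals was -0.69 ± 0.74 (SE, limma, adjusted p = 0.663). It was 0.50 without sample 2-1 (adjusted p = 0.328) and -1.89 without sample 2-2 (adjusted p = 0.0318), so the sign and the call turned on which sample of animal 2 was used. The other Atp2b3 probe set, 1442645_at, lay between 3.16 and 4.64, and the only Atp2b4 probe set, 1445701_at, lay between 0.88 and 2.86, both below the bound in every sample. Atp2b4 encodes PMCA4, a pump known from smooth muscle, red blood cells and sperm.

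Atp2a2 encodes SERCA2, the main SERCA pump of neurons. Probe set 1416551_at had deposited signals of 10592 and 11063 in samples 2-1 and 2-2 and 7237 and 7511 in samples 1-1 and 1-2. On the normalized scale it was at 13.19 and 13.18 in animal 2 and at 13.04 and 13.08 in animal 1. The difference there was 0.13 ± 0.04 (SE, limma, adjusted p = 0.213), against 0.55 on deposited values (adjusted p = 0.0198). The median of all tested probe sets was itself 0.47 higher in animal 2 on deposited values, and -0.05 after normalization.

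Probe set 1452363_a_at, whose suffix marks binding to several transcripts of the gene, was at 11.92 and 11.80 in animal 2 and at 10.99 and 11.18 in animal 1. The animals did not overlap, and the difference of 0.78 ± 0.11 missed the threshold (SE, limma, adjusted p = 0.0533). In limma it was called on deposited values (1.19, adjusted p = 0.0155), with an offset of 16 (0.0465) and with the test limited to probe sets clear of the bound in every sample (0.0197). It was not called when scaled to a common trimmed mean (0.0808), with no filter (0.195) or without the mean-variance trend (0.264). The difference was 0.68 without sample 1-1, 0.88 without 1-2, 0.72 without 2-1 and 0.84 without 2-2. Probe set 1427250_at, at 11.34 and 11.47 in animal 2 and 11.28 and 11.37 in animal 1, stood at 0.08 ± 0.10 (SE, limma, adjusted p = 0.707), and its animals overlapped. The other 3 Atp2a2 probe sets were dim. Of these, 1437797_at passed the bound in sample 1-1 alone, at 6.40, and 1427251_at and 1443551_at in no sample.

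Atp2a3 encodes SERCA3, which in the brain is known from Purkinje cells. Probe set 1421129_a_at was at 8.17 and 7.45 in samples 2-1 and 2-2 and at 6.91 and 7.49 in samples 1-1 and 1-2, above the bound in all. The groups overlapped, and the difference of 0.61 ± 0.40 was not called (SE, limma, adjusted p = 0.460). The deposited signals were 317.6 and 233.3 in animal 2 against 97.3 and 147.8 in animal 1 and did not overlap. Probe set 1450124_a_at of the same gene lay between 0.67 and 1.99, far below the bound.

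Ryr1 encodes the ryanodine receptor of skeletal muscle, which Purkinje cells also use. Probe set 1427306_at was at 5.71 and 7.13 in samples 2-1 and 2-2 and at 6.81 and 7.46 in samples 1-1 and 1-2. Only sample 2-1 lay below the bound, and the difference between animals was -0.72 ± 0.57 (SE, limma, adjusted p = 0.551). Probe set 1457347_at passed the bound only in sample 2-2, at 6.57, with the other 3 samples between 5.02 and 5.71.

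Ryr2 encodes the receptor of heart muscle, which is also widespread in the brain. Probe set 1450123_at was at 6.76 and 5.50 in samples 2-1 and 2-2 and at 6.35 and 7.06 in samples 1-1 and 1-2. Here sample 2-2 was the one below the bound, and the difference was -0.57 ± 0.59 (SE, limma, adjusted p = 0.648). Its other probe set, 1421126_at, lay between -1.53 and 3.57. Ryr3 encodes the third receptor, found at low levels in several tissues including brain. Its 3 probe sets lay between -0.81 and 4.60, below the bound in every sample, so the gene was not detectable above background with these probe sets.

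Between the animals, 12 of the 24 probe sets were bright enough to be tested, and 2 of them (16.7%), both of Atp2b2, were called higher in animal 2. Of these, 1420402_at had been admitted to the test by animal 2 alone, so the share is not set against others as a result. Over all 10156 probe sets tested, 0.423% were called, 25 (0.246%) higher and 18 (0.177%) lower in animal 2. Without mean-variance trend 0 were called in either direction. On deposited values the split over all probe sets was 651 higher and 13 lower, and 4 member probe sets were called higher. None of the 12 was called lower by limma, and 0 were lower at an unadjusted p under 0.05. At that unadjusted limit 4 of 12 (33.3%) were higher, the 2 of Atp2b2 and 2 of Atp2a2. Among all tested probe sets 18.4% (1871) were under that limit in either direction. The 4 come from 2 genes and include 1420402_at, so this share too is not read as a result. Without regard to the filter, both samples of animal 2 lay above both of animal 1 on 5 of 24 probe sets (20.8%), near the 20.1% of all probe sets. They lay below on 2 of 24 (8.33%, both of Ryr3 and under the bound), against 18.8% of all. On deposited values animal 2 was above without overlap on 10 of 24 (41.7%), against 31.8% of all.

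**Figure D3:**
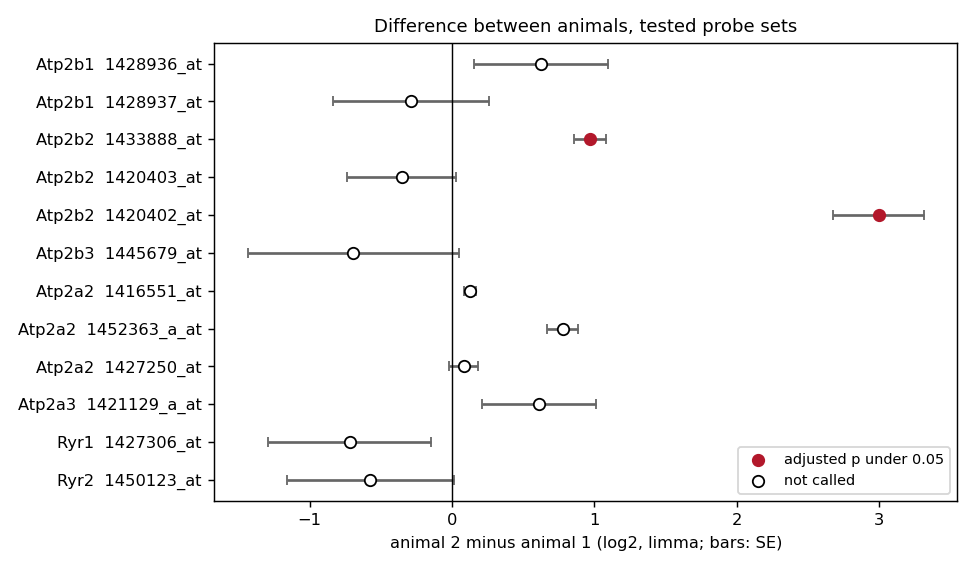
Difference between animal 2 and animal 1 on the log2 scale (x axis, points with SE from limma) for the 12 member probe sets tested. The filled points, both of Atp2b2, are the 2 called, of which 1420402_at is fitted against levels of animal 1 under the bound, and the other 10 points lie between -0.72 and 0.78.

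The samples of an animal did not repeat equally well. Over the 14 member probe sets above the bound on any array, the median absolute difference within an animal was 0.80 in animal 2 and 0.41 in animal 1, and it was larger in animal 2 on 10 of the 14. Over all tested probe sets, which had to pass the bound in at least 2 samples, the medians were 0.45 in animal 2 and 0.26 in animal 1. The 14 were chosen by a looser rule that admits dimmer probe sets, so these medians are not set against theirs. The Atp2a2 probe set 1416551_at differed by 0.01 within animal 2 and 0.04 within animal 1, and 1433888_at of Atp2b2 by 0.18 and 0.09. The Atp2b2 probe set 1420403_at differed by 0.99 within animal 2 and by 0.10 within animal 1. The brightest ones of Atp2b3, Ryr1 and Ryr2, all much nearer the bound, differed by 1.26 to 2.39 between the samples of animal 2.

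Markers of other cells also moved with the animals. The summed signal of the 11 granule cell markers was 2067 and 2073 in samples 2-1 and 2-2, against 4201 and 5344 in samples 1-1 and 1-2. Of the 11 genes, 2 were higher in animal 2, and Zic1 was called lower there (-1.29 ± 0.18, SE, limma, adjusted p = 0.0491). Of these granule cell markers Zic1, Gabra6, Cbln1 and Neurod1 passed the bound on all 4 arrays and 2 others on some. The remaining 5, Slc17a7, Pax6, Zic2, Fat2 and Grm4, lay below it in all samples. The 12 Bergmann glia and astrocyte markers summed to 11550 and 10309 in animal 2 and to 13954 and 13660 in animal 1. Of the 12 genes, 3 were higher in animal 2, and Hes5 and Slc6a11 lay below the bound throughout. The 12 Purkinje cell markers summed to 83574 and 83509 in animal 2 and to 76654 and 77818 in animal 1, with 7 of 12 genes higher in animal 2. Pcp2 was called higher in animal 2 (0.57 ± 0.07, SE, limma, adjusted p = 0.0391), while Calb1 was called lower on 1 probe set (1448738_at, -0.88 ± 0.10, SE, limma, adjusted p = 0.0356). The brightest Calb1 probe set, 1417504_at, stood at 13.68 in all 4 samples after quantile normalization. The sums were 3835 and 3013 in animal 2 against 4739 and 4471 in animal 1 for oligodendrocyte markers, with 2 of 7 genes higher in animal 2, and 466.9 and 466.3 against 743.7 and 741.6 for blood vessel markers, with 3 of 9 higher. Microglia markers summed to 149.5 and 148.5 in animal 2 and 254.2 and 217.5 in animal 1, but 6 of 7 genes were higher in animal 2, and Csf1r, the only one above the bound, was the lower one. Interneuron markers summed to 2821 and 2877 in animal 2 and 2062 and 2271 in animal 1, with 4 of 8 genes higher. Most of that sum is Slc32a1, the vesicular GABA transporter, which GABAergic Purkinje cells are also known to use. The part of these shifts, or of array brightness, in the Atp2b2 and Atp2a2 values was not tested.

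The probe sets whose levels over the 4 arrays, centred on their own mean, lay nearest to those of the called Atp2b2 probe sets were then listed. For 1433888_at these were Fastkd5, Tcf25 and Meg3, at root mean square distances of 0.03, 0.03 and 0.04 on the log2 scale, but 260 of 6624 probe sets lay within 0.2, so 4 arrays single out few genes. Only probe sets above the bound in every sample were searched, which 1420402_at itself is not, so probe sets with low levels in animal 1 like its own were not in the search. Of those searched, 0 lay within 0.2 of it, and the nearest were Arhgap5 (0.41), a Rora probe set (1458129_at, 0.45) and an Atp1b1 probe set (1418453_a_at, 0.53). Atp1b1 is a subunit of the sodium pump, and Rora, a nuclear receptor of Purkinje cells, stood at -0.13 ± 0.08 between animals on its own brightest probe set (SE, limma, adjusted p = 0.454).

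The remaining calcium handling genes were taken from 8 lists by role, of which 45 of 53 genes were measured. Of the 45, 21 (46.7%) were clear of the bound in every sample, against 26.4% of all genes, with 4 in some samples only and 20 in none. With the median over the probe sets of a gene in place of the brightest, the count was 11. The share of all genes was not counted by the median, so 26.4% does not apply to that count. Among 36 tested probe sets of these genes, 0 were called higher and 0 lower by limma, with 7 higher and 4 lower in animal 2 at an unadjusted p under 0.05.

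Of the other pump genes, the Golgi calcium and manganese pump Atp2c1 (9.76 ± 0.10, SD, n = 2 animals) passed on all 4 arrays, and Atp2c2 and the skeletal muscle SERCA gene Atp2a1 on none. Pump partners passed in 2 of 4 cases, the PMCA subunits neuroplastin (Nptn, 11.73 ± 0.27) and basigin (Bsg, 7.77 ± 0.36), while the SERCA inhibitors phospholamban (Pln) and sarcolipin (Sln) lay below the bound throughout. Genes for calcium-binding proteins of the endoplasmic reticulum lumen passed in 5 of 7 cases, among them the chaperones Hspa5 (12.08 ± 0.11), Calr (11.34 ± 0.19) and Canx (10.91 ± 0.35). Casq2, the calsequestrin of heart muscle, passed too (9.35 ± 0.72), and Casq1, that of skeletal muscle, did not.

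Ryanodine receptor partners passed in 5 of 10 cases. Fkbp1a, a protein that binds and stabilizes the receptor, was at 12.35 ± 0.01, Asph, whose locus also encodes the receptor partner junctin, at 10.15 ± 0.39, and Sri, sorcin, at 7.53 ± 0.50 (SD, n = 2 animals). Triadin (Trdn), Fkbp1b and the junctophilins Jph2, Jph3 and Jph4 lay below the bound on every array. Of the measured IP3 receptor genes, Itpr2 and Itpr3 passed on none, and Itpr1, which no probe set with a single symbol named, is not analysed here. Sodium calcium exchanger genes passed in 2 of 8 cases, Slc8a1 (8.53 ± 1.13) and Slc24a2 (8.02 ± 0.03), with Slc24a3 at 5.99 ± 0.64. Slc8a1 was at 7.97 and 7.49 in samples 2-1 and 2-2 and at 9.28 and 9.39 in samples 1-1 and 1-2, and its difference of -1.60 ± 0.28 was not called (SE, limma, adjusted p = 0.0699).

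Store refilling genes passed in 3 of 6 cases, the store sensors Stim1 (7.85 ± 0.05) and Stim2 (7.70 ± 0.63) and the regulator Saraf (11.14 ± 0.08), while the channel genes Orai1, Orai2 and Orai3 passed on no array. Genes of mitochondrial calcium uptake passed in 3 of 5 cases, Micu3 (10.95 ± 0.11), Smdt1 (9.38 ± 0.49) and Mcur1 (8.67 ± 0.44, SD, n = 2 animals). The pore gene Mcu passed on 1 array, and Micu2 on none.

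**Figure D4:**
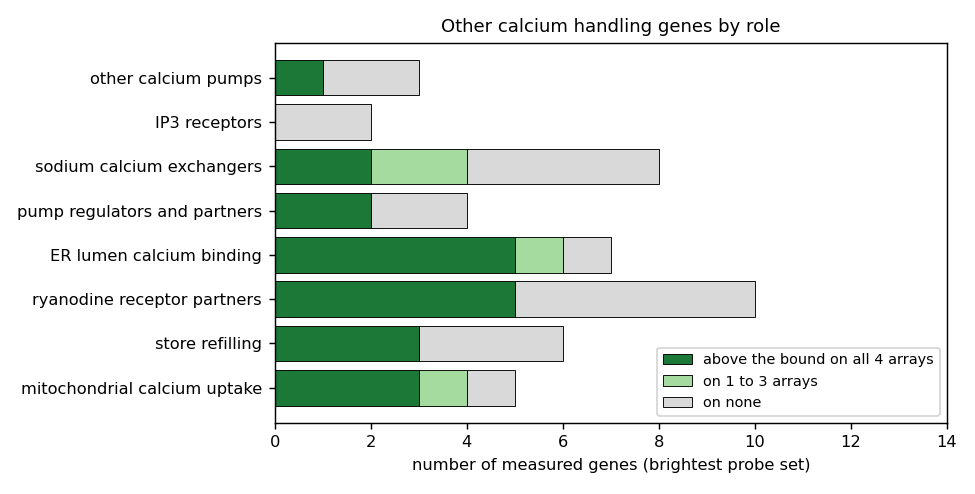
Number of measured genes of each calcium handling role (x axis) whose brightest probe set exceeded the background bound in every sample, in 1 to 3 samples or in none. The endoplasmic reticulum lumen and ryanodine receptor partner lists hold 5 genes each above it on all 4 arrays, and the measured IP3 receptors hold 0.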

How the data were processed

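The authors deposited linear intensity values, 1 for each probe set in each sample, from GCOS, per the submitters' processing notes. Its version, signal algorithm and scaling target are not given here, and detection calls were not used. Per the labels' protocols, about a nanogram of RNA was amplified in 2 cycles before labelling, and how amplification weighs on single probe sets was not tested. From the 45101 rows, 64 controls were left out and signals below 0.1 were set to 0.1 before log2. The arrays' means, trimmed by 2% at each end, differed by 46.6%, over the 5% limit set for keeping deposited values, so quantile normalization was applied. The table held 0 columns of other samples.

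Names came from the platform annotation, and all 24 member probe sets matched RefSeq by gene identifier, with 0 symbols changed. A gene is given by its brightest probe set, as mean ± SD over 2 animals. Animals were compared (2 minus 1) by lmFit and trended eBayes (limma 3.58.1, R 4.3.3) over the 10156 probe sets clear of the bound in 2 or more samples. The fit had 2 residual degrees of freedom, to which the trend over all tested probe sets added a median of 4.65. P-values were adjusted by Benjamini-Hochberg, with calls at 0.05. The bound is rough, since 2 of the 71 organ genes passed it on all 4 arrays and 7 on any. The number of arrays limits all precision. The fit was tested on simulated data.

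The members and lists were chosen with earlier results of these data known. Genes named were all members, the 3 highest genes of each calcium list, undetected genes where there were 3 or fewer, called genes, and the 3 nearest probe sets of called members; others were named after their values were seen. Promoter sequences are from RefSeq, build GRCm38.p6, for 6 of the 9 genes. Alternatives tried were other bounds, normalizations, offsets, filters and probe set choices, no trend, and leaving out each sample.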

Additional observations from a re-analysis of the deposited data

Results flagged for a closer look

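Of 47 probe sets checked for a sample far from the other 3, 2 stood out, and chance gives about 1 in 20. The Ryr3 probe set 1432133_at was at 2.56 in sample 2-1 against 1.15 in 2-2 and 1.03 in both samples of animal 1, with a gap of 0.922 of the whole range. All these levels lie below the background bound. The Sri probe set 1450878_at was at 8.79 in sample 2-1 and 6.97 in sample 2-2, and at 7.27 and 7.08 in samples 1-1 and 1-2, with a gap of 0.834 of the range.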

How the results depend on the processing

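The count of member genes above the bound on all arrays was 4, and it was 7 with the bound at the 90th percentile and 7 where passing in 2 samples sufficed. For member probe sets these counts were 7, 13 and 12. Without probe sets whose suffix marks binding to several transcripts, 3 genes and 5 probe sets passed on all arrays, and Atp2a3 was the gene lost. Leaving out single samples gave 4 to 6 genes and 7 to 10 probe sets. Passing was then asked only of the remaining arrays, a looser demand, so these counts are not a like-for-like check. The other calcium handling genes above the bound numbered 21. They numbered 22 with the bound at the 90th percentile, 18 at the 99th, 23 where passing in 2 samples sufficed and 11 with the median over probe sets.

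Calls between animals were less stable. Member probe sets called higher numbered 2, against 4 on deposited values, 3 with an offset of 16, 0 with no filter and 0 without trend. Scaled to a common trimmed mean there was 1, and 1433888_at then had an adjusted p of 0.0547 in limma. With only probe sets clear of the bound in every sample there were 2, but these were 1433888_at of Atp2b2 and 1452363_a_at of Atp2a2. Member probe sets called lower numbered 0, and 0 to 1 with a sample left out. Over all probe sets, 25 were called higher, against 651 on deposited values, 5 with no filter, 91 with probe sets clear of the bound in every sample, 0 without trend, and 2 to 296 with a sample left out (235 without sample 2-1). Those called lower were 18, against 0 with no filter, 90 clear of the bound in every sample, 0 without trend, and 0 to 654 with a sample left out (529 without sample 2-1). For the other calcium genes, 0 were called higher, against 5 on deposited values, 1 above the bound on all 4 arrays and 0 to 4 with a sample left out. Those called lower were 0, against 1 above the bound on all 4 arrays and 0 to 3 with a sample left out. With a sample left out, the residual spread comes from the pair of the other animal alone, and the lone sample is assumed to vary like it.

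Signs that turned were those of uncalled probe sets. On deposited values 1428937_at of Atp2b1 stood at 0.28, 1420403_at of Atp2b2 at 0.21 and 1450123_at of Ryr2 at 0.0053. Without sample 2-1, 1428937_at stood at 0.12, 1420403_at at 0.14 and 1445679_at of Atp2b3 at 0.50, and without sample 2-2 the Ryr2 probe set stood at 0.057. The cause was not tested. Without sample 2-1 or 2-2, and with only probe sets clear of the bound in every sample, 1420402_at of Atp2b2 no longer met the filter. A second organ list for the bound was not at hand and was not run. No paired analysis was possible because all samples form 1 group and their numbers pair nothing across animals.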
